A study of Homo sapiens with 2 samples.

Results

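The 44 synaptic vesicle and release genes are a named list of human genes whose products build, dock, fuse or retrieve neurotransmitter vesicles. They comprise 13 genes of the calcium sensor families (synaptotagmins and DOC2 proteins), 12 SNARE proteins and their regulators, 7 active zone and RAB3 genes, 7 vesicle membrane or vesicle-bound proteins, and 5 endocytosis genes. CpGs were assigned to a gene by the annotation in the deposited table, either as promoter CpGs or as CpGs of the rest of the gene, here called the gene body. All 44 genes were found, with 5886 CpGs read at least 10 times in both libraries, of 2458231 such autosomal CpGs and 31235 autosomal genes. SH-SY5Y cells, a human neuroblastoma line of noradrenergic type, were exposed to Mdivi-1, known as a small-molecule inhibitor of mitochondrial fission, or to DMSO. Each group, Mdivi-1 and DMSO (the control), was 1 library of genomic DNA, and the labels give neither the dose nor the time of exposure. No difference below has a replicate check, and the exposure, the culture and the library cannot be told apart. Methylation was read after bisulfite conversion of captured DNA, which does not tell methylated from hydroxymethylated cytosine. RNA was not analysed here, so nothing below measures expression.

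Neurotransmitter release begins when a vesicle is docked and primed at the active zone, where SNARE proteins on the vesicle (VAMP) and on the plasma membrane (SNAP25 and syntaxin) zip together. Calcium entering through nearby channels binds synaptotagmins, which trigger fusion, while complexins hold and then promote the partly zipped complex. Clathrin adaptors, amphiphysin, dynamin and synaptojanin retrieve the membrane, and NSF takes the spent SNARE complexes apart. Neuroblastoma cells come from the sympathetic lineage and carry secretory vesicles. Promoters rich in CpGs are usually free of methylation whether or not the gene is active, while CpGs in the bodies of transcribed genes and outside islands are usually methylated.

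Over all autosomal CpGs, mean coverage was 49.2 reads in the Mdivi-1 library and 39.8 reads in the control library, and over the member CpGs it was 49.8 reads in the Mdivi-1 library and 40.5 reads in the control library. The mean level of member CpGs was 39.4% in Mdivi-1 cells and 39.1% in control cells, a difference of 0.377 points, against 0.456 points over all autosomal CpGs. Among promoters of 10 noradrenergic neuroblastoma markers, 6 were under 20% in both libraries and 2 (TH and INSM1) were at 50% or more in both. Of 5 measured fibroblast promoters 1 was under 20% in both libraries and 3 were at 50% or more, and of 6 epithelial promoters the counts were likewise 1 and 3. Of 3 measured blood promoters, 2 were under 20% in both libraries and 1 was at 50% or more.

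Levels around a transcription start could be placed for 24 members, in 26 stretches of at least 5 measured CpGs. Of these, 19 averaged under 10% in both libraries. The rest ran from 10.8% to 58.0% in Mdivi-1 cells and from 9.66% to 75.9% in control cells. For 7 members, the 250 bases before a RefSeq start (GRCh38.p14) are shown. They were picked to show stretches with hardly any methylation, methylated ones and the edge between them. Capitals mark the CG dinucleotides measured with at least 10 reads in both libraries. The CGs were placed on the measured hg19 positions by their spacing alone. Positions are counted from the start, and the base just before it is -1.

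The first 4 had next to no methylation. In the VAMP1 stretch, chr12:6470678-6470927 on the minus strand, the 22 CGs averaged 1.21% in Mdivi-1 cells and 0.810% in control cells, and no CG was above 2.82% in Mdivi-1 cells or 2.90% in control cells.
VAMP1: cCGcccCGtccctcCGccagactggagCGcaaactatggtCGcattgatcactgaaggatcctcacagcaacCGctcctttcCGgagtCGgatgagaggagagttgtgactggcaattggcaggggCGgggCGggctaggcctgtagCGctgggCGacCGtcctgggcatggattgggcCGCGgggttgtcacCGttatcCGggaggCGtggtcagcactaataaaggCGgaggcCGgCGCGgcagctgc
The SYT1 stretch, chr12:78864524-78864773 on the plus strand, had 11 of its 13 CGs measured, with means of 1.22% in Mdivi-1 cells and 0.681% in control cells.
SYT1: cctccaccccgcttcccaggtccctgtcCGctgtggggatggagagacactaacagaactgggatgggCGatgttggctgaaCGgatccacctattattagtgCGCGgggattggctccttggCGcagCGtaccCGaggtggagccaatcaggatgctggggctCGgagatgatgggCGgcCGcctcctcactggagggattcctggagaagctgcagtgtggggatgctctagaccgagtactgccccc
In the RAB3A stretch, chr19:18204043-18204292 on the minus strand, all 25 CGs were measured, with means of 1.02% in Mdivi-1 cells and 1.55% in control cells.
RAB3A: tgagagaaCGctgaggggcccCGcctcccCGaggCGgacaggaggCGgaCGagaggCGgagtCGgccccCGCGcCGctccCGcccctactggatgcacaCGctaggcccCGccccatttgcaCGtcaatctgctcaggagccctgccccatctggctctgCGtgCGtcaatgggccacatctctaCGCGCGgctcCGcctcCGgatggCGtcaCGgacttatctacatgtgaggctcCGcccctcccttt
All 19 CGs of the SYT11 stretch, chr1:155859317-155859566 on the plus strand, were measured, with means of 1.21% in Mdivi-1 cells and 0.900% in control cells.
SYT11: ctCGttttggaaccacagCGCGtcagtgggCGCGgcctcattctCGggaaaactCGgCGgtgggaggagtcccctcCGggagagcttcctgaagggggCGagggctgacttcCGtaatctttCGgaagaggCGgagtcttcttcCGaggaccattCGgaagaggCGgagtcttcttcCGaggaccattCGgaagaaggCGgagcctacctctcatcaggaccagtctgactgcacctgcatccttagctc

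The other 3 carried methylation. In the SYT9 stretch, chr11:7251654-7251903 on the plus strand, the capitals end in the middle because the CGs nearer the start are not among those with 10 reads in both libraries. The 10 CGs from position -220 to position -157 lay between 45% and 96.6% in Mdivi-1 cells and between 50% and 95% in control cells. The next 4, from -137 to -120, lay between 0% and 6.25% in Mdivi-1 cells and between 0% and 7.14% in control cells. The change from high to low methylation thus fell between the same CGs of this SYT9 stretch in both libraries.
SYT9: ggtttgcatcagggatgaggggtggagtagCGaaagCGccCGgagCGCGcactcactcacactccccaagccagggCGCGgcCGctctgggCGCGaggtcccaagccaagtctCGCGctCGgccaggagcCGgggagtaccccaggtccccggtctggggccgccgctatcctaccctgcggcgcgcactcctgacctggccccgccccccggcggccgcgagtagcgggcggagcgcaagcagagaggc
The SYT4 stretch, chr18:43277491-43277740 on the minus strand, has only 8 CGs, of which 7 were measured. Those at -239 and -227 were read as 97.1% and 100% in Mdivi-1 cells and as 96.4% and 96.6% in control cells. The 5 from -60 to -10 ran between 16.1% and 55.6% in Mdivi-1 cells and between 12.9% and 65.4% in control cells.
SYT4: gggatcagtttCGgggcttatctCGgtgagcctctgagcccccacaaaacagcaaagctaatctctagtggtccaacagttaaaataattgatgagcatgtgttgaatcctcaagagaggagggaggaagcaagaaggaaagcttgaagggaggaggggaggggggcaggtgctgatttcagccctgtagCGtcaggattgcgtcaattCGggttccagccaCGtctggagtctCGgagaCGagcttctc
In the CPLX3 stretch, chr15:74826377-74826626 on the plus strand, 9 of 26 CGs were measured, with means of 50.9% in Mdivi-1 cells and 75.9% in control cells.
CPLX3: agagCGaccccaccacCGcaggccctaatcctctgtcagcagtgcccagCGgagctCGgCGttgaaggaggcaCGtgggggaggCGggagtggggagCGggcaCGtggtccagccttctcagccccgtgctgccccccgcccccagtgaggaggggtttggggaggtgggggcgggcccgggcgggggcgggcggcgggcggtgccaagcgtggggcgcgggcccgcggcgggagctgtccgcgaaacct
Those 9 CpGs of CPLX3 are described with its promoter below.

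**Figure D1:**
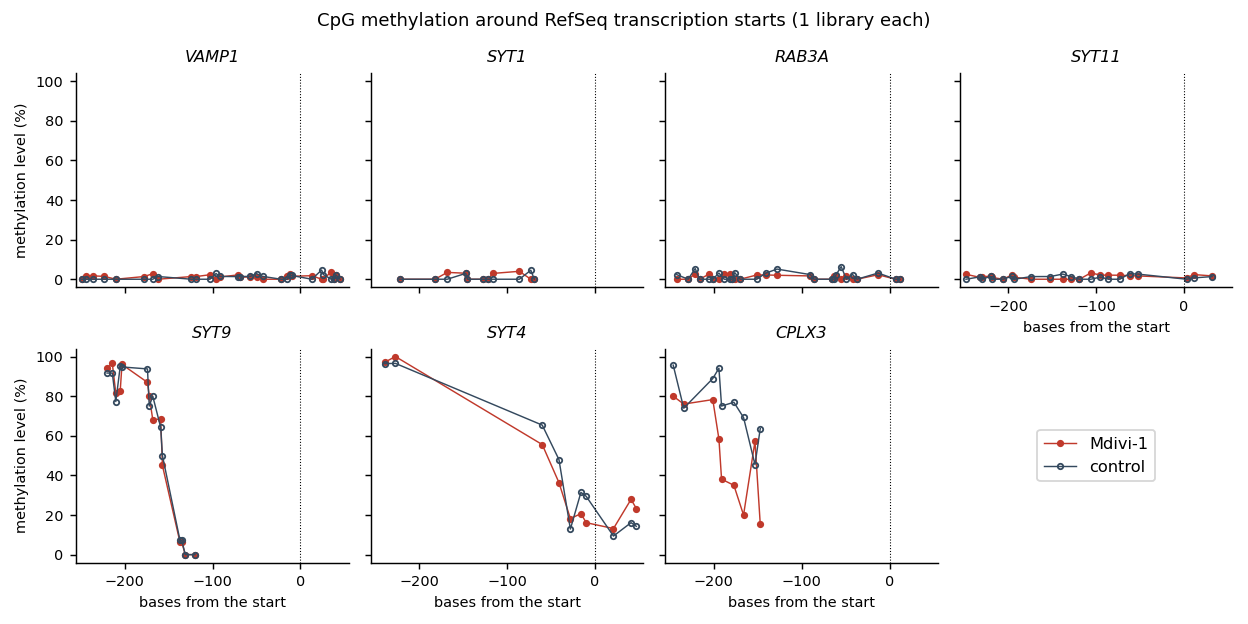
Methylation level in percent (vertical axis) of single CpGs against their distance in bases from the RefSeq transcription start (horizontal axis), in Mdivi-1 cells (filled red) and control cells (open dark), 1 library each, CpGs with at least 10 reads in both. In VAMP1, SYT1, RAB3A and SYT11 every point lies near 0, in SYT9 and SYT4 the level drops toward the start in both libraries, and in CPLX3 the Mdivi-1 points lie lower at 7 of 9 CpGs.

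RefSeq promoter entries (250 bases before a start and 50 after it) were available for 35 of the 44 members, with 55 entries in all. The members not matched were CPLX1, DOC2A, DOC2B, RIMS2, SNAP25, SYN3, SYNGR3, SYT7 and SYT12. Member entries held a median of 28 CGs in 300 bases, against 14 over all 35116 entries, and their median G and C content was 69.3%, against 58.7%. The motif GGGCGGG, the core of a GC box, stood on either strand in 60% of member entries, against 33.1% of all entries, and TATAAA in 1.82% (1 entry), against 11.5%. Of the 2 parts of the RE1 element, which the neuronal repressor REST binds, TTCAGCACC stood in 1.82% of member entries against 0.376% of all, and GGACAGC in 10.9% against 6.03%. Only UNC13A held both among the member entries, and a match is a run of letters, not a bound site. By spacing, 29 of the 55 entries could be placed on measured CpGs, and 26 entries from 24 members had at least 5 CpGs with 10 reads, 368 CpGs in all. Of these 26 entries, 19 (from 17 members) averaged under 10% in both libraries, the highest of them 9.55% in Mdivi-1 cells and 9.32% in control cells. The level around the start was below the level of the whole annotated promoter in 20 of the 26 entries in each library. The difference, Mdivi-1 minus control, was above 0 in 14 entries and below 0 in 12, with a median of 0.0357 points, and among the 19 low entries none differed by more than 2.41 points.

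Across the annotated promoters, 41 of the 44 members had at least 5 CpGs, STX1A and UNC13C had 3 each, and NSF had none. The median promoter level was 19.5% in Mdivi-1 cells and 18.4% in control cells, against 18.6% in Mdivi-1 cells and 18.4% in control cells over all 22658 measured autosomal promoters. Of the 41, 14 (34.1%) were under 10% in both libraries, against 35.8% of all promoters, and 5 (12.2%) were at 50% or more in the control, against 22.7%. Of the 1604 promoter CpGs of the members, 61.0% were under 10% in both libraries, close to the 61.7% over all promoter CpGs, and 6.98% were at 80% or more in both, against 16.4%. In 24 of the 41 promoters, at least 1 CpG of each kind lay somewhere in the annotated promoter, a count that was not made over all promoters. The lowest promoters in the control were RAB3A, STXBP5, SNAP25, VAMP1 and VAMP2, all at or under 3.24%, and the highest were SYT9, SV2A, SYNGR3, SYT2 and SYT4, from 54.3% to 73.7%. The order of the members was nearly the same in both libraries, with a Spearman coefficient of 0.993 across the 41 promoters, which share the capture design, the cell line and the base composition.

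**Figure D2:**
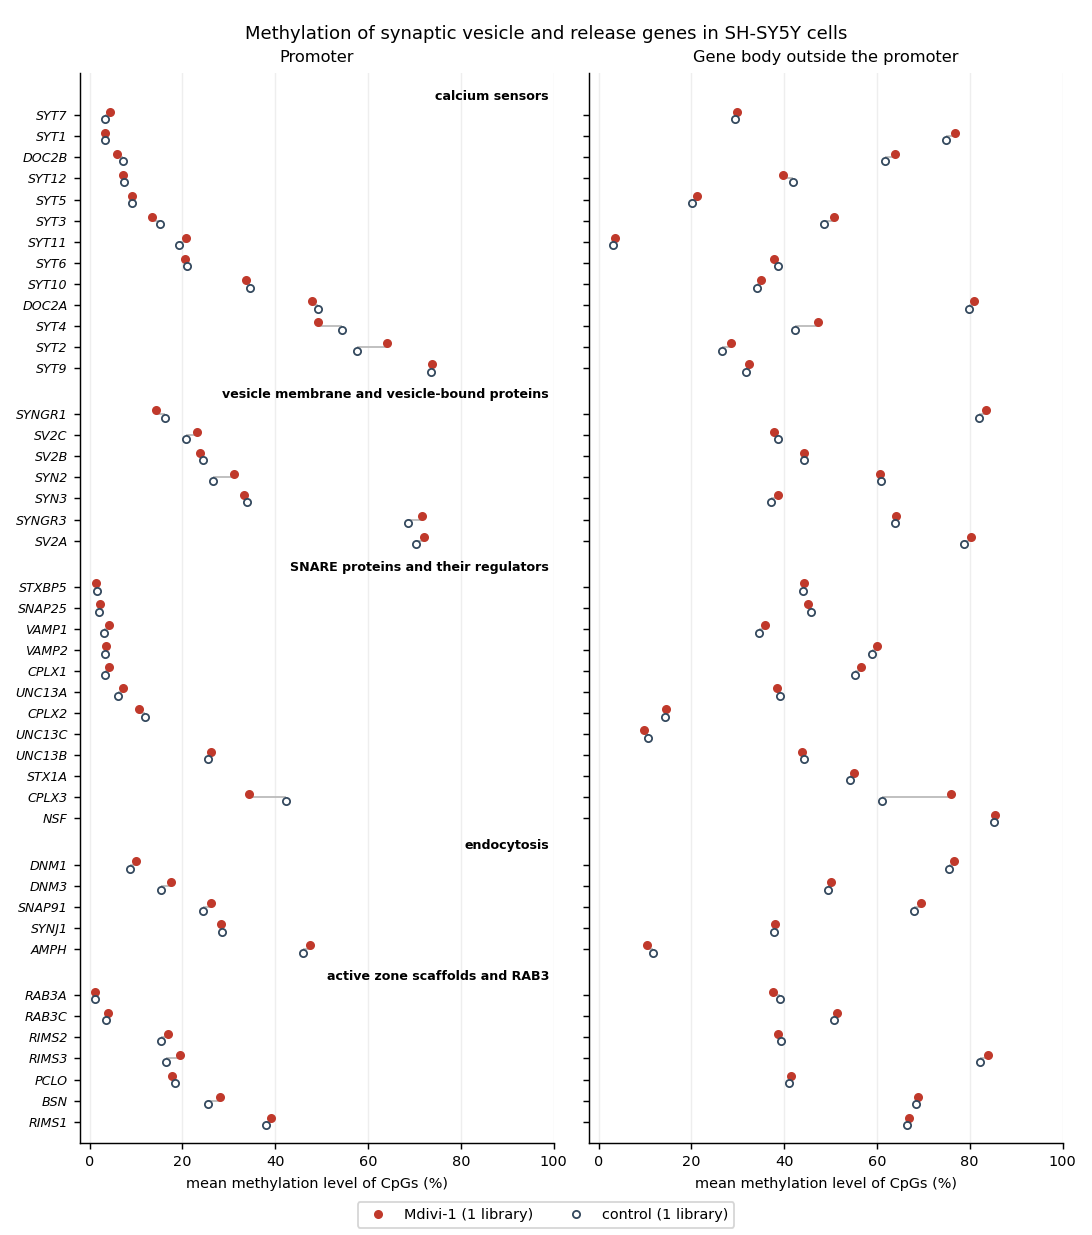
Mean methylation level in percent (horizontal axis) of each member's promoter (left) and gene body outside the promoter (right), with members grouped by role down the page, in Mdivi-1 cells (filled red, upper) and control cells (open dark, lower), 1 library each. Members without 5 CpGs have no point, promoters run from 1.16% (RAB3A) to 73.9% (SYT9) in Mdivi-1 cells, and the points of both libraries of a gene lie close together beside the spread between genes.

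Among the calcium sensors, the fast sensor of synchronous release and its close relatives differed in the level of their annotated promoter CpGs. SYT1, which triggers synchronous release in forebrain neurons, had a promoter level of 3.40% in Mdivi-1 cells and 3.39% in control cells, and a gene body level of 76.9% in Mdivi-1 cells and 74.9% in control cells. SYT2, the corresponding sensor of brainstem and neuromuscular synapses, had a promoter level of 64.2% in Mdivi-1 cells and 57.7% in control cells, and a gene body level of 28.6% in Mdivi-1 cells and 26.5% in control cells. SYT9, another fast sensor, had a promoter level of 73.9% in Mdivi-1 cells and 73.7% in control cells, and a gene body level of 32.5% in Mdivi-1 cells and 31.7% in control cells. Over the annotated CpGs, SYT1 thus had a low promoter and a methylated body in both libraries, and SYT2 and SYT9 the reverse order. However, the 8 SYT2 and 28 SYT9 promoter CpGs were all annotated as upstream, and the 5' UTR was low in all 3 genes. In Mdivi-1 cells the 5' UTR averaged 5.75% in SYT1, 10.4% in SYT2 and 3.49% in SYT9. In control cells these averages were 5.47%, 7.10% and 2.27%. The body mean of SYT9 rests mostly on island CpGs. With the promoter included, its 107 island CpGs averaged 23.4% in Mdivi-1 cells and 23.3% in control cells and its 23 CpGs outside islands, shores and shelves 93.7% in Mdivi-1 cells and 90.8% in control cells. In SYT2, 35 island CpGs averaged 13.7% in Mdivi-1 cells and 9.86% in control cells, and 24 outside islands, shores and shelves 47.6% in Mdivi-1 cells and 45.7% in control cells. SYT7, a high-affinity sensor of asynchronous release, had a promoter level of 4.49% in Mdivi-1 cells and 3.27% in control cells, and a gene body level of 29.8% in Mdivi-1 cells and 29.3% in control cells. SYT3, another high-affinity synaptotagmin, stood at 13.4% in Mdivi-1 cells and 15.2% in control cells in its promoter, and at 50.8% in Mdivi-1 cells and 48.7% in control cells in its body. SYT5, found on dense-core vesicles, stood at 9.13% in Mdivi-1 cells and 9.11% in control cells in its promoter, and at 21.1% in Mdivi-1 cells and 20.1% in control cells in its body. All 3 had promoters well below their bodies. SYT6, known from sperm acrosome exocytosis, had a promoter level of 20.6% in Mdivi-1 cells and 21.1% in control cells, and a body level of 37.9% in Mdivi-1 cells and 38.6% in control cells. SYT10, tied in mouse to release of IGF-1, had a promoter level of 33.7% in Mdivi-1 cells and 34.6% in control cells, and a body level of 35.1% in Mdivi-1 cells and 34.1% in control cells. Neither promoter differed between the libraries beyond its counting error.

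The synaptotagmins grouped with the calcium sensors by family, though they do not bind calcium in the usual way, lay far apart. SYT4, carried on BDNF-containing vesicles, had a promoter level of 49.2% in Mdivi-1 cells and 54.3% in control cells over 7 CpGs, and a body level of 47.2% in Mdivi-1 cells and 42.4% in control cells. SYT11, which restrains endocytosis, had a promoter level of 20.7% in Mdivi-1 cells and 19.3% in control cells, and a body level of 3.52% in Mdivi-1 cells and 3.08% in control cells, the lowest body of all 44 genes in each library. Its 47 measured body CpGs span only chr1:155829361-155831790 (hg19), so this is the part of the gene near its start. SYT12 had a promoter level of 7.21% in Mdivi-1 cells and 7.43% in control cells, and a body level of 39.8% in Mdivi-1 cells and 41.9% in control cells. The SYT11 promoter mean came from a minority of its CpGs, since 20 of 26 were under 10% in both libraries and 3 were at 80% or more in both. DOC2A and DOC2B, high-affinity sensors linked to spontaneous and asynchronous release, also differed from each other. DOC2A had a promoter level of 48.0% in Mdivi-1 cells and 49.2% in control cells, with 21 of its 49 CpGs under 10% and 19 at 80% or more in both libraries, and a body level of 80.9% in Mdivi-1 cells and 79.8% in control cells. DOC2B had a promoter level of 5.89% in Mdivi-1 cells and 7.22% in control cells, and a body level of 63.9% in Mdivi-1 cells and 61.7% in control cells. Over the 13 genes of this role, promoters were higher in Mdivi-1 cells in 6 and lower in 7 (median difference -0.222 points), and gene bodies were higher in 11 and lower in 2 (median difference 1.02 points).

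The SNARE genes had the least methylated promoters of the 5 roles, with a median of 4.24% in Mdivi-1 cells and 3.27% in control cells over 9 measured promoters. SNAP25, the plasma membrane SNARE with a pair of helices, had a promoter level of 2.20% in Mdivi-1 cells and 1.90% in control cells over 78 CpGs, and a body level of 45.1% in Mdivi-1 cells and 45.8% in control cells. VAMP1 had a promoter level of 4.24% in Mdivi-1 cells and 3.18% in control cells, and VAMP2, its fellow vesicle SNARE, one of 3.48% in Mdivi-1 cells and 3.24% in control cells. Their bodies stood at 35.8% in Mdivi-1 cells and 34.5% in control cells for VAMP1, and at 59.9% in Mdivi-1 cells and 58.9% in control cells for VAMP2. The syntaxin STX1A had only 3 promoter CpGs, at 35.4% in Mdivi-1 cells and 38.9% in control cells, beside a body level of 54.98% in Mdivi-1 cells and 54.17% in control cells. STXBP5 (tomosyn), which blocks SNARE assembly, had a promoter level of 1.31% in Mdivi-1 cells and 1.48% in control cells, with all 61 CpGs under 10% in both libraries, and a body level of 44.2% in Mdivi-1 cells and 44.1% in control cells. NSF, the ATPase that takes SNARE complexes apart, was measured in its body alone, at 85.5% in Mdivi-1 cells and 85.1% in control cells, the highest body of all 44 genes in each library.

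The complexins and the priming factors of the UNC13 family were more varied. CPLX1, the complexin of fast synapses, had a promoter level of 4.12% in Mdivi-1 cells and 3.27% in control cells, and a body level of 56.6% in Mdivi-1 cells and 55.2% in control cells. CPLX2 had a promoter level of 10.7% in Mdivi-1 cells and 11.8% in control cells, and a body level of 14.6% in Mdivi-1 cells and 14.3% in control cells, so both parts of this gene were low. CPLX3, the complexin of retinal ribbon synapses, had a promoter level of 34.4% in Mdivi-1 cells and 42.3% in control cells, and a body level of 76.0% in Mdivi-1 cells and 61.2% in control cells over only 5 CpGs. UNC13A, the main priming factor of glutamatergic synapses, had a promoter level of 7.24% in Mdivi-1 cells and 6.08% in control cells, and a body level of 38.4% in Mdivi-1 cells and 39.0% in control cells. UNC13B had a promoter level of 26.1% in Mdivi-1 cells and 25.6% in control cells, and a body level of 43.9% in Mdivi-1 cells and 44.3% in control cells. UNC13C, best known from the cerebellum, had 3 promoter CpGs at 1.96% in Mdivi-1 cells and 13.0% in control cells, and a body level of 9.73% in Mdivi-1 cells and 10.5% in control cells, among the lowest bodies. Over this role, promoters were higher in Mdivi-1 cells in 6 of 9 and bodies in 8 of 12.

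At the active zone, both RAB3 genes had low promoters. RAB3A, the vesicle GTPase that binds RIM, had a promoter level of 1.16% in Mdivi-1 cells and 1.22% in control cells, the lowest of all members in each library, with all 43 CpGs under 10% in both, and a body level of 37.6% in Mdivi-1 cells and 39.0% in control cells. RAB3C had a promoter level of 3.86% in Mdivi-1 cells and 3.62% in control cells, and a body level of 51.5% in Mdivi-1 cells and 50.8% in control cells. The scaffolds were higher. RIMS1, which tethers calcium channels and RAB3, had a promoter level of 39.0% in Mdivi-1 cells and 38.1% in control cells over 4 stretches more than 2000 bases apart, and a body level of 66.8% in Mdivi-1 cells and 66.4% in control cells. Its first stretch, at chr6:72595487-72596177 (hg19), was at 2.39% in Mdivi-1 cells and 5% in control cells over 10 CpGs, while the last, at chr6:73074515-73076074, was at 58.0% in Mdivi-1 cells and 54.7% in control cells over 11 CpGs. RIMS2 had a promoter level of 16.8% in Mdivi-1 cells and 15.5% in control cells, and a body level of 38.8% in Mdivi-1 cells and 39.3% in control cells. RIMS3, a short RIM, had a promoter level of 19.5% in Mdivi-1 cells and 16.4% in control cells, and a body level of 84.0% in Mdivi-1 cells and 82.3% in control cells. The giant scaffolds BSN and PCLO were of the mixed kind. BSN had a promoter level of 28.0% in Mdivi-1 cells and 25.5% in control cells, and a body level of 68.9% in Mdivi-1 cells and 68.3% in control cells. PCLO had a promoter level of 17.8% in Mdivi-1 cells and 18.4% in control cells, where 26 of 34 CpGs were under 10% and 4 at 80% or more in both libraries, and a body level of 41.5% in Mdivi-1 cells and 41.1% in control cells. In this role, promoters were higher in Mdivi-1 cells in 5 of 7 and bodies in 5 of 7.

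The vesicle membrane proteins had the highest promoter median of the 5 roles, at 31.0% in Mdivi-1 cells and 26.5% in control cells. SV2A, a vesicle glycoprotein that binds levetiracetam, had a promoter level of 72.1% in Mdivi-1 cells and 70.2% in control cells over 6 CpGs outside any island, and a body level of 80.2% in Mdivi-1 cells and 78.8% in control cells. SV2B had a promoter level of 23.9% in Mdivi-1 cells and 24.5% in control cells, and a body level of 44.3% in Mdivi-1 cells and 44.3% in control cells. SV2C had a promoter level of 23.2% in Mdivi-1 cells and 20.7% in control cells, and a body level of 37.9% in Mdivi-1 cells and 38.7% in control cells. SV2A thus stood well above its relatives in both parts. SYNGR3, a synaptogyrin that binds the dopamine transporter, had a promoter level of 71.6% in Mdivi-1 cells and 68.7% in control cells, and a body level of 64.1% in Mdivi-1 cells and 63.9% in control cells. SYNGR1 had a promoter level of 14.2% in Mdivi-1 cells and 16.3% in control cells, and a body level of 83.6% in Mdivi-1 cells and 82.0% in control cells. The 2 promoter stretches of SYNGR1 differed, the first averaging 3.20% in Mdivi-1 cells and 3.48% in control cells and the second 25.9% in Mdivi-1 cells and 29.9% in control cells. Of the synapsins, which tether vesicles to each other and to actin, SYN2 had a promoter level of 31.0% in Mdivi-1 cells and 26.5% in control cells over 7 CpGs, and a body level of 60.6% in Mdivi-1 cells and 60.9% in control cells. SYN3 had a promoter level of 33.2% in Mdivi-1 cells and 34.0% in control cells, and a body level of 38.7% in Mdivi-1 cells and 37.1% in control cells.

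Among the endocytosis genes, DNM1, the neuronal dynamin that cuts vesicles from the membrane, had a promoter level of 9.98% in Mdivi-1 cells and 8.59% in control cells, and a body level of 76.6% in Mdivi-1 cells and 75.5% in control cells. DNM3 had a promoter level of 17.5% in Mdivi-1 cells and 15.4% in control cells, and a body level of 50.03% in Mdivi-1 cells and 49.35% in control cells. Both dynamins thus had promoters far below their bodies. SNAP91 (AP180), a clathrin adaptor, had a promoter level of 26.2% in Mdivi-1 cells and 24.5% in control cells, and a body level of 69.5% in Mdivi-1 cells and 68.0% in control cells. SYNJ1, the phosphatase that sheds the coat, had a promoter level of 28.3% in Mdivi-1 cells and 28.6% in control cells, and a body level of 38.0% in Mdivi-1 cells and 37.9% in control cells. AMPH (amphiphysin), which recruits dynamin, was the other way round, with a promoter level of 47.5% in Mdivi-1 cells and 46.1% in control cells, over 15 CpGs in an island shore, and a body level of 10.5% in Mdivi-1 cells and 11.7% in control cells. The low body of AMPH was not an island alone, since its 19 island CpGs averaged 3.6% in Mdivi-1 cells and 3.49% in control cells and its 56 CpGs outside islands, shores and shelves 13.3% in Mdivi-1 cells and 15.02% in control cells. In this role, promoters were higher in Mdivi-1 cells in 4 of 5 and bodies in 4 of 5.

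To ask whether Mdivi-1 cells differed from control cells at these promoters, the mean level of each was compared between the libraries. No member promoter passed the rule of size (5 or more CpGs that differ on average by 10 points or more, 80% of them in that direction), against 0.243% of all promoters. Of the 41, 25 had a difference above 0 and 16 below 0, and over all promoters 58.3% were above 0. The median difference was 0.244 points, against 0.198 points over all promoters, and 31 of the 41 lay within 2 points of 0. Counting error was computed for CpGs read independently, and, as an upper bound, for CpGs that all share the same reads. In all, 8 promoters (19.5%) differed by more than 1.96 counting errors of independent CpGs, against 11.6% of all promoters. No member promoter differed by more than 1.96 counting errors of shared reads. Neither did any of the 22658 promoters, so this count does not set the members apart. Since 1 library stands for each group, either counting error covers the counting of reads and not the spread between cultures.

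The 6 that lay higher in Mdivi-1 cells by this measure belong to several roles. SV2C differed by 2.53 points (counting error 1.01), with 32 of 62 CpGs higher and 20 lower. The difference was uneven, since its 30 island CpGs, chr5:75377900-75378189 (hg19), differed by 8.05 points (counting error 1.49). Of these 30, named after their values were seen, 26 were higher and 4 lower. Its 22 upstream CpGs differed by -1.19 points. BSN differed by 2.5 points (counting error 0.826), with 25 of 44 CpGs higher and 10 lower. DNM3 differed by 2.11 points (counting error 0.735), with 23 of 35 CpGs higher and 8 lower. The other 3 were smaller, at 1.39 points for DNM1, 1.36 points for SYT11 and 1.06 points for VAMP1. For VAMP1, the 29 CpGs around the start differed by 0.241 points. The 2 that lay lower were CPLX3, described next, and DOC2B, at -1.33 points (counting error 0.549), with 9 of 47 CpGs higher and 17 lower. The 4 largest differences above 0 belonged to other promoters, with wider counting errors. SYT2 differed by 6.48 points (counting error 4.35) over 8 CpGs, of which 4 were higher and 3 lower, and by 1.2 points where at least 20 reads were required. SYN2 differed by 4.53 points (counting error 3.70) over 7 CpGs, RIMS3 by 3.06 points (counting error 2.40) over 12, and SYNGR3 by 2.92 points (counting error 1.86) over 24. None of these 4 passed 1.96 counting errors, and with all reads of the promoter pooled the difference of RIMS3 was -4.0 points. Below 0, SYT4 differed by -5.15 points (counting error 4.02), SYNGR1 by -2.08 points (counting error 1.76) and SYT3 by -1.78 points (counting error 1.13). All 3 changed sign under an alternative. The pooled difference was 1.44 points for SYT4 and 0.0901 points for SYT3, and at 20 reads SYT3 was at 1.08 points and SYNGR1 at 1.04 points. Pooling all reads turned the direction of 11 of the 41 promoters, a count not made over all promoters.

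**Figure D3:**
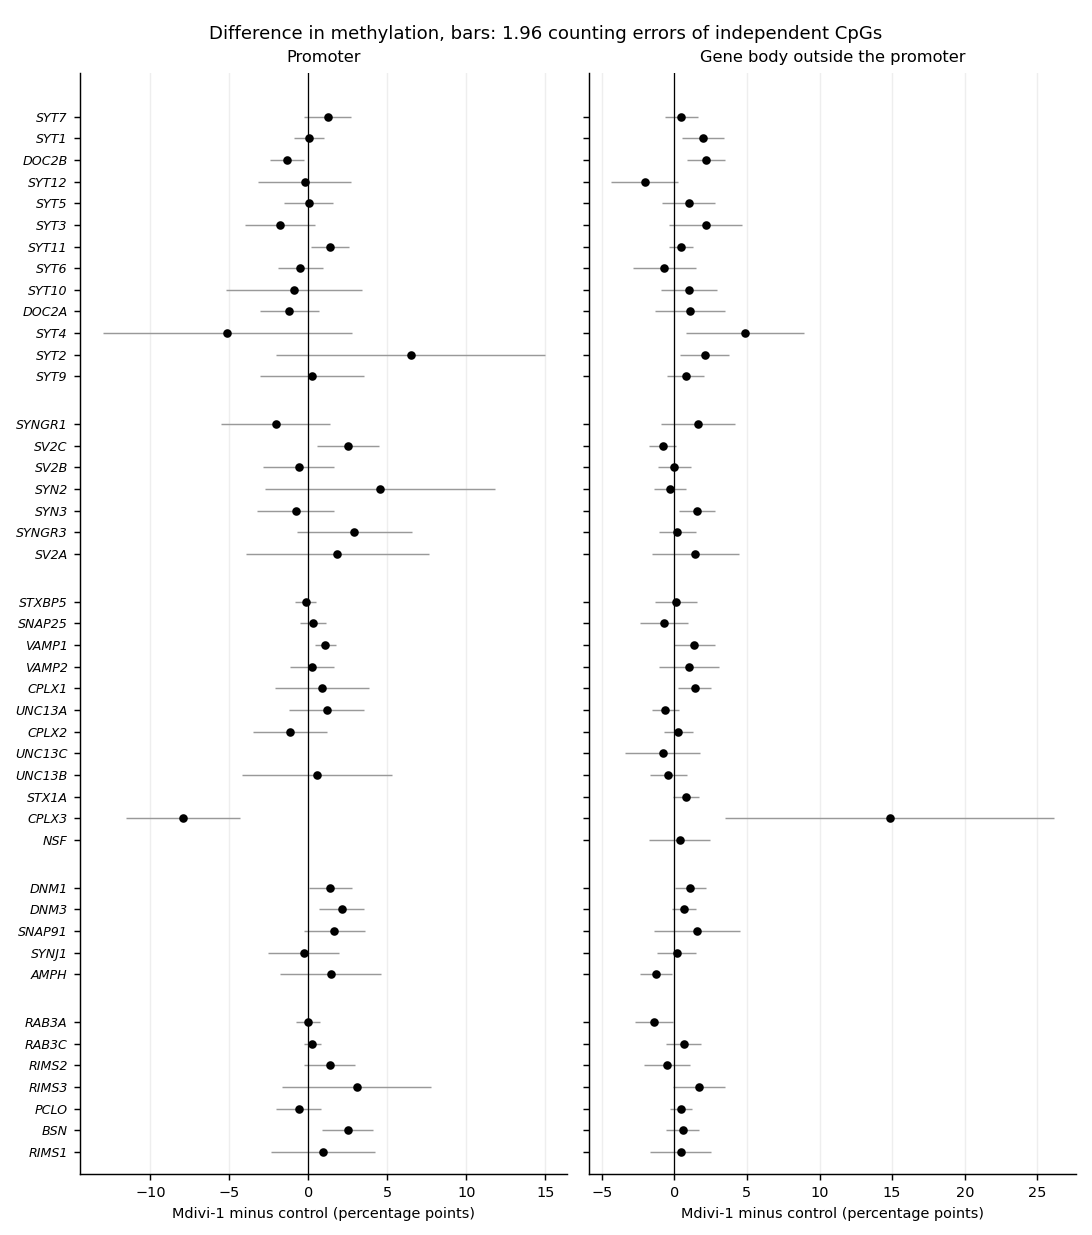
Difference in mean methylation, Mdivi-1 minus control, in percentage points (horizontal axis) for each member's promoter (left) and gene body (right), in the order of roles used for the levels. Points are 1 library against 1 library, bars are 1.96 counting errors of independent CpGs, and the line marks 0. Most points lie within 2 points of 0, and CPLX3 stands apart in both panels, at -7.91 points in its promoter and 14.8 points in its 5 gene body CpGs.

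Among the 41 members with at least 5 promoter CpGs, CPLX3 had the largest promoter difference, -7.91 points. Its counting error was 1.84 for independent CpGs and 11.0 for shared reads. Its annotated promoter, chr15:75117002-75118822 (hg19), holds 34 measured CpGs outside any island, and it overlaps the intronic, 3' UTR and downstream annotation of the neighbouring gene LMAN1L. The difference did not run through the promoter, since 16 CpGs were higher and 18 lower in Mdivi-1 cells, 7 of them lower by 20 points or more. Without those 7, a choice by value that shrinks the difference by design, the mean difference was -0.107 points. Of the 7, 5 lay together at the end nearest the start, among the last 9 CpGs (chr15:75118723-75118822), of which 7 were lower in Mdivi-1 cells to any degree. The CpG at position -201 had 18 of 23 reads methylated in Mdivi-1 cells and 16 of 18 in control cells. At -194 the counts were 14 of 24 reads in Mdivi-1 cells and 16 of 17 in control cells, and at -191 they were 8 of 21 reads in Mdivi-1 cells and 12 of 16 in control cells. From there to -147 the Mdivi-1 counts were 7 of 20, 3 of 15, 8 of 14 and 2 of 13 reads, and the control counts 10 of 13, 9 of 13, 5 of 11 and 7 of 11 reads. The 95% Wilson intervals of both libraries overlapped at each of the 9 CpGs, of which 5 had an unadjusted Fisher p under 0.05 and none an adjusted p under 1. These 9 CpGs, picked out after their values were seen, averaged 50.9% in Mdivi-1 cells and 75.9% in control cells, on 13 to 25 reads per CpG in Mdivi-1 cells and 11 to 23 in control cells. With at least 20 reads required in both libraries, the difference of the whole promoter was -0.959 points.

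Gene bodies were compared in the same way, since methylation there is usually high in transcribed genes. The median body level of the 44 members was 44.7% in Mdivi-1 cells and 44.3% in control cells, against 38.1% in Mdivi-1 cells and 37.7% in control cells over all 23487 measured bodies. The difference was above 0 in 32 members and below 0 in 12, and over all bodies 65.8% were above 0. Its median was 0.604 points, against 0.394 points over all bodies. Of the 41 members that also had a measured promoter, 35 had a body difference within 2 points of 0. So did the remaining members, STX1A (0.809 points), UNC13C (-0.809 points) and NSF (0.356 points). The body passed the rule of size in 1 member, CPLX3, against 0.149% of all bodies. In 10 members (22.7%) the difference exceeded 1.96 counting errors of independent CpGs, against 16.9% of all bodies. It exceeded 1.96 counting errors of shared reads in no member, and in none of all 23487 bodies. Of those 10, 8 were higher in Mdivi-1 cells (SYT1, SYT2, SYT4, SYN3, CPLX1, CPLX3, DNM1 and DOC2B) and 2 lower (RAB3A and AMPH). Pooling all reads of the body turned the direction in 12 of those 41 members (not counted over all bodies), among them SYT1, at -1.01 points. It also turned STX1A, at -1.16 points, and NSF, at -0.479 points. With at least 30 reads required, the differences of SYT4 and DNM1 were -0.623 and -0.101 points. With its own promoter CpGs included, the CPLX3 body was at -6.26 points.

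The 5 largest differences above 0 belonged to CPLX3, 3 synaptotagmins and DOC2B. CPLX3 differed by 14.8 points (counting error 5.78) over 5 CpGs. SYT4 differed by 4.86 points (counting error 2.06), with 11 of 18 CpGs higher and 6 lower. Its 10 CpGs in the 5' UTR differed by 9.61 points and its 6 exonic CpGs by -1.43 points. DOC2B differed by 2.18 points (counting error 0.657), with 32 of 59 CpGs higher and 11 lower. SYT3 differed by 2.17 points (counting error 1.28) and SYT2 by 2.09 points (counting error 0.863), with 40 of 68 CpGs higher and 22 lower. At 30 reads the SYT3 body was at -1.09 points. In CPLX3, SYT4, DOC2B and SYT3 the promoter difference was below 0, so promoter and body lay on opposite sides of 0. Over the 41 members with both parts, promoter and body were both higher in Mdivi-1 cells in 18, both lower in 4 and on opposite sides in 19. These pairs were not counted over all genes, where 58.3% of promoters and 65.8% of bodies were above 0, so they are not a trait of the members. The 5 largest differences below 0 were smaller. SYT12 differed by -2.05 points (counting error 1.16), RAB3A by -1.41 points (counting error 0.666) and AMPH by -1.25 points (counting error 0.568). For SYT12 the difference was of the opposite sign at 20 and at 30 reads, at 1.90 points with 30. SV2C and UNC13C were the others, at -0.819 and -0.809 points, and each lay above 0 under at least 1 alternative. Body methylation exceeded promoter methylation in 35 of the 41 members in Mdivi-1 cells and in 34 in control cells, a count not made over all genes.

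Cut into 1 kb windows, the members had 297 windows of at least 5 CpGs, of which 169 were higher and 128 lower in Mdivi-1 cells, and over all windows 58.7% were higher. The median window difference was 0.359 points, against 0.352 points over all windows. The rule of size was passed by 3 member windows, all of them higher in Mdivi-1 cells, or 1.01% of member windows, against 0.874% of all windows in either direction and 0.538% in the higher direction. The share of member windows past the rule was thus near that of all windows. The first is the CPLX3 intron window, chr15:75119278-75119409 (hg19), the same 5 CpGs as its measured body. They averaged 76.0% in Mdivi-1 cells and 61.2% in control cells, and all 5 were higher in Mdivi-1 cells. Read counts there were 4 of 12, 24 of 26, 24 of 28, 21 of 21 and 11 of 16 methylated in Mdivi-1 cells, against 2 of 10, 24 of 29, 29 of 37, 31 of 36 and 12 of 31 in control cells. No single one of them had a Fisher p under 0.0687.

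The second window, chr6:73075518-73075888 in an intron of RIMS1, lies in the last annotated promoter stretch of the gene. Its 6 CpGs averaged 66.7% in Mdivi-1 cells and 56.2% in control cells, a difference of 10.5 points (counting error 4.47), and 5 of the 6 were higher. The widest gap in it was 24 of 32 reads in Mdivi-1 cells against 11 of 22 in control cells, at position 73075881. The difference was 7.51 points with all reads pooled and 8.0 points with both libraries thinned to the same reads, both below the size required. The third window, chr19:55684641-55684686, lies in the 3' UTR of SYT5 in an island shore, where 5 CpGs averaged 84.8% in Mdivi-1 cells and 72.3% in control cells, a difference of 12.5 points (counting error 6.49). It rests on 13 or 14 reads per CpG in Mdivi-1 cells and 16 to 24 in control cells, and 4 of its 5 CpGs were higher. With both libraries thinned, the SYT5 difference was 6.26 points. No member window was past the rule in the lower direction, and the lowest, at -10.1 points, was the CPLX3 window just before the start, in which 14 of 26 CpGs were lower. The next lowest, at -9.73 points, was a CPLX2 window at chr5:175306055-175306229, where 11 CpGs averaged 24.9% in Mdivi-1 cells and 34.6% in control cells and 10 of the 11 were lower.

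Single CpGs were compared by Fisher's exact test on the reads of both libraries, which compares these libraries and not the conditions, with Benjamini-Hochberg adjustment over all autosomal CpGs. No member CpG of 5886 was called (adjusted p under 0.05 and at least 20 points), against 0.00061% of all CpGs, and the smallest adjusted p of a member CpG was 1. At an unadjusted p under 0.05 there were 122 member CpGs (2.07%), against 2.0% of all CpGs, of which 72 were higher and 50 lower in Mdivi-1 cells. The members' share was therefore near that of all CpGs. The 10 with the smallest p were all higher in Mdivi-1 cells. The first lies in the 3' UTR of CPLX1 (chr4, position 778917), with 49 of 49 reads methylated in Mdivi-1 cells (95% Wilson interval 92.7% to 100%) and 33 of 44 in control cells (60.6% to 85.4%), an unadjusted p of 0.000126 by Fisher's exact test. A CpG in the 5' UTR of SYT3 (chr19, position 51142356) had 16 of 35 reads methylated in Mdivi-1 cells and 4 of 36 in control cells. One in the 3' UTR of SYT1 (chr12, position 79844389) had 62 of 62 reads methylated in Mdivi-1 cells and 45 of 53 in control cells. These differed in kind, since the CPLX1 and SYT1 sites were fully methylated in Mdivi-1 cells and the SYT3 site was nearly unmethylated in control cells. Introns held 4 of the 10. The DNM3 CpG had 53 of 56 reads methylated in Mdivi-1 cells and 38 of 52 in control cells, and the DNM1 CpG 11 of 38 in Mdivi-1 cells and 1 of 34 in control cells. The SYN2 CpG had 34 of 50 reads methylated in Mdivi-1 cells and 12 of 34 in control cells, and the SYT2 CpG 84 of 92 in Mdivi-1 cells and 67 of 89 in control cells. Each of these 4 intronic sites was partly methylated in Mdivi-1 cells, the DNM1 site least. A second SYT3 CpG, in its 3' UTR, had 23 of 25 reads methylated in Mdivi-1 cells and 9 of 18 in control cells. An exonic SYT12 CpG had 10 of 44 reads methylated in Mdivi-1 cells and 0 of 28 in control cells, where the 95% Wilson interval reaches 12.1%. A CPLX2 CpG in its 5' UTR had 9 of 25 reads methylated in Mdivi-1 cells and 0 of 19 in control cells, where the interval reaches 16.8%.

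**Figure D4:**
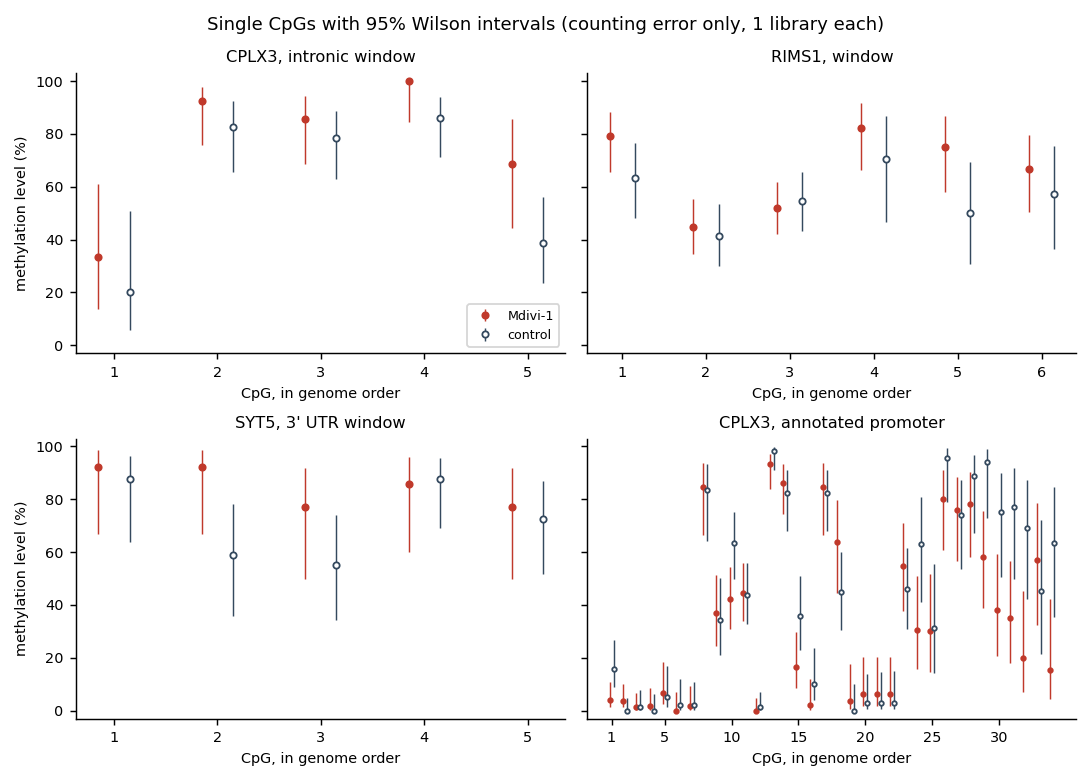
Methylation level in percent (vertical axis) of single CpGs in genome order (horizontal axis) in the 3 member windows past the rule of size and in the annotated CPLX3 promoter, in Mdivi-1 cells (filled red) and control cells (open dark), 1 library each, with bars for 95% Wilson intervals that cover counting error only. The Mdivi-1 points lie above the control points at 5 of 5, 5 of 6 and 4 of 5 CpGs of the CPLX3, RIMS1 and SYT5 windows, with overlapping intervals, and 7 of the last 9 CpGs of the CPLX3 promoter lie lower in Mdivi-1 cells.

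In most of the members that could be compared, methylation was lower in the 5' UTR than in the stretch before the start. In 17 members with at least 5 CpGs in both annotations, the median level upstream was 17.8% in Mdivi-1 cells and 18.4% in control cells, and in the 5' UTR it was 5.75% in Mdivi-1 cells and 4.35% in control cells. The 5' UTR was the lower one in 14 of the 17 (82.4%) in Mdivi-1 cells and in 16 (94.1%) in control cells, against 61.5% in Mdivi-1 cells and 62.5% in control cells over 6547 genes. Over all autosomal CpGs too, the 5' UTR was lower, at 14.9% in Mdivi-1 cells and 14.8% in control cells, against an upstream level of 22.3% in Mdivi-1 cells and 22.1% in control cells. SYT9 had the widest step, from its 28 upstream CpGs, at 73.9% in Mdivi-1 cells and 73.7% in control cells, to its 16 CpGs in the 5' UTR, at 3.49% in Mdivi-1 cells and 2.27% in control cells. SYT2 was alike, with 64.2% in Mdivi-1 cells and 57.7% in control cells upstream, and 10.4% in Mdivi-1 cells and 7.10% in control cells in the 5' UTR. In CPLX2, by contrast, the 5' UTR was the higher one in both libraries, at 15.1% in Mdivi-1 cells and 12.6% in control cells, against an upstream level of 5.79% in Mdivi-1 cells and 9.08% in control cells. SYT12 and RAB3A had the higher 5' UTR in Mdivi-1 cells alone, by less than 1 point each.

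**Figure D5:**
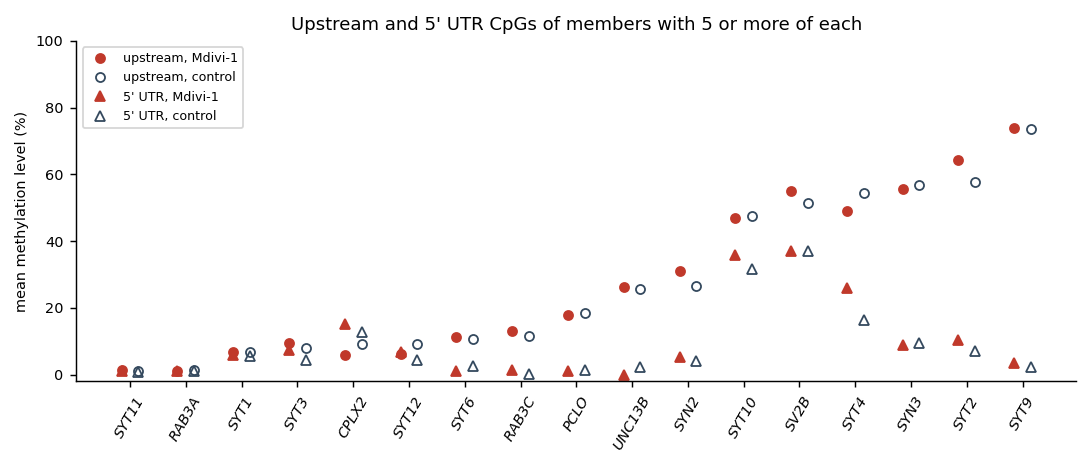
Mean methylation level in percent (vertical axis) of upstream CpGs (circles) and 5' UTR CpGs (triangles) in 17 members (horizontal axis, ordered by upstream level in control cells), in Mdivi-1 cells (filled red) and control cells (open dark), 1 library each. The triangles lie below the circles in 14 members in Mdivi-1 cells and in 16 in control cells, with the widest step in SYT9, and above them in CPLX2 in both libraries.

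The difference between libraries is given here by annotation class of the member CpGs, with counting errors of independent CpGs. Neighbouring CpGs can share reads, so these errors can be too small. No bound for shared reads was computed for the classes. The 341 CpGs in the 5' UTR averaged 11.6% in Mdivi-1 cells and 10.5% in control cells, a difference of 1.08 points (counting error 0.357), against 0.163 points over all autosomal 5' UTR CpGs. Of the 341, 142 were higher, 101 lower and 98 equal, and of 27 members with a CpG there 19 were higher, 7 lower and 1 equal. Without CPLX2, SYT2 and SYT4, chosen after their values were seen, the difference was 0.504 points over 285 CpGs. SYT4 had 26.0% in Mdivi-1 cells and 16.4% in control cells over 10 CpGs of its 5' UTR. The 91 promoter CpGs annotated as intergenic averaged 28.8% in Mdivi-1 cells and 25.5% in control cells, a difference of 3.36 points (counting error 0.893), against 0.465 points over all intergenic promoter CpGs. SV2C held 40 of these, at 34.5% in Mdivi-1 cells and 29.9% in control cells, and SYT6 held 31, at 24.6% in Mdivi-1 cells and 21.6% in control cells. The 40 of SV2C include its 30 island CpGs described above, so both differences rest in part on the same reads. The 219 CpGs in introns of noncoding RNA genes, all of them promoter CpGs, differed by 1.16 points (counting error 0.436), against 0.408 points over all such promoter CpGs. The 47 CpGs that lie upstream of one gene and downstream of another differed by -5.40 points (counting error 1.37), against 0.0560 points over all such autosomal CpGs. CPLX3 held 22 of the 47, at -11.1 points, and its CpGs before the start are among them. Differences in the larger classes were 0.306 points upstream (580 CpGs), 0.499 in exons (896), 0.239 in introns (3252), 0.390 in the 3' UTR (259) and 0.537 in noncoding exons (152). They were -0.0107 points downstream (35 CpGs) and -2.65 points where noncoding and coding introns overlap (14 CpGs). Over all autosomal CpGs the differences were 0.232 points upstream, 0.519 in exons, 0.706 in the 3' UTR and 0.375 in noncoding exons. Downstream and overlapping-intron CpGs of all autosomes differed by 0.434 and 0.517 points. The intronic value lay below that of all autosomal intronic CpGs, 0.542 points. By island class, members averaged 25.8% in Mdivi-1 cells and 25.5% in control cells in islands, 34.7% in Mdivi-1 cells and 34.3% in control cells in shores, and 59.97% in Mdivi-1 cells and 59.48% in control cells outside islands, shores and shelves.

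Of 68 other genes of vesicle release and recycling, 67 had a measured promoter, with a median level of 20.8% in Mdivi-1 cells and 20.4% in control cells. No promoter among them passed the rule of size, 36 were higher and 31 lower in Mdivi-1 cells, and the median difference was 0.250 points. The 3 largest differences above 0 were 4.77 points at CPLX4, 3.16 points at SYT16 and 2.75 points at NAPB. Below 0, SH3GL2 (endophilin A1, which bends the membrane in endocytosis) had 21.1% in Mdivi-1 cells and 25.9% in control cells, a difference of -4.80 points (counting error 1.47). SLC18A2, the vesicular monoamine transporter, had 33.4% in Mdivi-1 cells and 37.5% in control cells, and CADPS, a priming factor of dense-core vesicles, 42.2% in Mdivi-1 cells and 45.9% in control cells. Their gene bodies were higher in 44 and lower in 23, with a median difference of 0.528 points.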

How the data were processed

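Genomic DNA of SH-SY5Y cells, 1 Mdivi-1 library and 1 DMSO control library, was captured with SureSelectXT Methyl-Seq and sequenced after bisulfite conversion, per the labels' protocols. The submitters' processing notes name BSMAP and hg19, and the caller, the filters and the definition of a promoter are not given in the sources used here. The deposited table gives a methylated fraction and a coverage for each of 2773807 positions, 99.1% of them on the minus strand. Coverage is treated as an estimated count, since the deposited values are fractional at 10751 positions.

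The deposited control fractions correspond to whole methylated reads only if control coverage is scaled up to the Mdivi-1 library by median coverage (37 reads in Mdivi-1, 30 in control), so they had been rescaled. Methylated reads were recovered at the original coverage, and 10798 positions (0.389%) that gave no single whole count were left out. The deposited difference score was not used.

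The tables use autosomal CpGs read 10 or more times in each library. A promoter held the CpGs that the table annotates as promoter of the gene, and a gene body its other CpGs outside intergenic annotation. Levels are means over CpGs, weighting each CpG equally, for features of at least 5 CpGs. The rule of size was a mean difference of at least 10 points with 80% of CpGs in that direction. Counting errors and 95% Wilson intervals cover counting only, since reads copied by PCR are not independent molecules. Single CpGs were tested with the two-sided Fisher exact test, adjusted by Benjamini-Hochberg over all autosomal CpGs, and this code was tested on simulated data.

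Named in full were the 5 largest promoter and gene body differences in each direction, every feature past the rule of size, the 10 smallest p-values, the 5 highest and 5 lowest promoters in the control, and the 3 largest promoter differences in each direction of the other release genes. The members and lists were chosen with earlier results of these data known. RefSeq promoter sequences (GRCh38.p14) were placed on measured CpGs where at least 8 CGs coincided by spacing, every measured CpG in the 300 bases fell on a CG, and no other such placement had more than 3. Alternatives covered coverage minimums, deep CpGs, thinning, deposited fractions, pooled reads, CpG minimums, size limits and window lengths. The choice of the minus strand alone and 3 alternatives for the 5' UTR were added after seeing the data. Tests used SciPy 1.17.1 and NumPy 2.4.6 under Python 3.11.15, tables pandas 2.3.3, and figures Matplotlib 3.10.9.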

Additional observations from a re-analysis of the deposited data

How the results depend on the processing

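No paired analysis was possible because each group is 1 library. No member promoter passed the rule of size and no member CpG was called under any alternative run, while calls over all CpGs numbered 10 to 19. The median promoter difference ran from 0.158 to 0.607 points and the median gene body difference from 0.333 to 0.923 points over the alternatives. Of 949 values of single members under alternatives, 905 lay within 1.96 counting errors of the value reported and 72 had the other sign. The sign held under every alternative run for 22 promoters (16 higher, 6 lower in Mdivi-1 cells) and for 19 gene bodies (16 higher, 3 lower).

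The median promoter level in Mdivi-1 cells was 17.7% at 5 reads, 19.0% at 20 reads, 20.1% with both libraries thinned to the same reads, 17.999% with pooled reads and 17.2% with at least 10 CpGs. In control cells it was 16.2% at 5 reads, 19.6% with pooled reads and 15.9% with at least 10 CpGs. The median gene body level in Mdivi-1 cells was 47.2% at 20 reads, 50.1% at 30 reads, 53.2% with pooled reads, 44.3% with at least 10 CpGs and 38.6% with the gene's own promoter CpGs included. In control cells it was 43.9% at 5 reads, 47.3% at 20 reads, 50.6% at 30 reads, 51.6% with pooled reads and 38.4% with the promoter CpGs included. The CPLX3 gene body, the 1 body past the rule, was not past it at 20 reads, 30 reads, at least 10 CpGs or at least 15 points, where the count was 0, and with its own promoter CpGs included its difference was -6.26 points. The 3 windows past the rule became 0 at 30 reads, with at least 10 CpGs or at least 15 points, 12 with at least 3 CpGs, 13 with at least 5 points, 5 with 500 bp windows and 1 with 2 kb windows. The 5' UTR difference of the members was 1.57 points at 20 reads (234 CpGs) and 0.805 points with pooled reads. Apart from fewer CpGs and features at higher minimums, the cause of these shifts was not tested. With 20 reads in a library, 1 read is worth 5 points, so single CpGs of the CPLX3 and SYT5 windows carry wide intervals.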
